A study of Drosophila melanogaster with 2 samples.

Results

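The genes described here encode the proteins of the mitochondrial ribosome of Drosophila melanogaster, and were taken as all protein-coding genes whose symbol starts with mRpL or mRpS followed by a digit. This rule found 73 genes among 13945 protein-coding genes on the 6 chromosome arms, of which 47 encode proteins of the large subunit (mRpL) and 26 proteins of the small subunit (mRpS). Chromatin immunoprecipitation with sequencing (ChIP-seq) had been done on whole embryos, 0 to 24 h old, of a transgenic strain labelled Nf-YA-GFP that carries an insertion expressing Nf-YA fused to eGFP. An antibody against GFP was used for the precipitation, after sonication to fragments of 200 to 800 bp. There was 1 group, of 2 biological replicates, with no second genotype, age or treatment, and the libraries for its control were not analysed here. The embryos were pooled over the stated ages and over all cell types, so a low peak from all cells and a tall peak from a few cannot be told apart.

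The mitochondrial ribosome makes the few respiratory chain proteins that the mitochondrial genome encodes. Its own proteins are all encoded in the nucleus, translated in the cytosol and imported, so their genes are read by nuclear transcription factors. Nf-YA is the subunit of the trimeric factor NF-Y that makes the sequence-specific contacts with the CCAAT box, an element of many promoters. Many of the mRp genes stand head to head with a neighbour, in which case the same stretch of DNA is upstream of both genes.

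A gene is called bound here when the summit of a peak, its highest point, lay within 500 bp of one of its annotated start sites in the pooled list of thresholded peaks. The authors made that list from both replicates. Of the 73 mRp genes, 13 were bound, a share of 17.8% (exact Clopper-Pearson 95% interval 9.84 to 28.5), and among all protein-coding genes 12.5% were bound. The background share lies inside the interval of the mRp genes, so their share was not distinguishable from it at this number of genes. The 13 bound genes had 13 separate peaks, and none had more than 1 pooled summit within the limit. In descending order of peak signal they were mRpL41, mRpS10, mRpS23, mRpL23, mRpL24, mRpS2, mRpL20, mRpL34, mRpL32, mRpS26, mRpS31, mRpS29 and mRpS6.

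The DNA around 5 of these summits is printed because 12 of the 13 bound genes had an AT-rich stretch of this kind within the 101 bp. It was not always at the summit itself, and 63.5% of all pooled summits had one in such a window. Each line gives 101 bases of the dm6 reference genome centred on the summit (base 51 of the line), 5′ to 3′ on the strand of the mRp gene, and capitals mark unbroken runs of at least 8 A or T bases. The windows are chr3R:15229485-15229585 on the plus strand, chr2L:13835405-13835505 on the minus strand, chr2L:4945415-4945515 on the minus strand, chr2L:4850516-4850616 on the minus strand and chr3L:13018091-13018191 on the minus strand. None of them overlaps an annotated exon.
mRpS10: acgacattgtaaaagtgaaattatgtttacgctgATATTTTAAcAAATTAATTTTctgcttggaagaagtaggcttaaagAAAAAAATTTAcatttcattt
mRpS23: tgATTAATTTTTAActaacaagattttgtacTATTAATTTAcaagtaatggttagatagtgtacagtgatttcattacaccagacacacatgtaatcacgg
mRpL24: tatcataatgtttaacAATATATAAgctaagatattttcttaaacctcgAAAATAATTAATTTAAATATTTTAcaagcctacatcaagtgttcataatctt
mRpS2: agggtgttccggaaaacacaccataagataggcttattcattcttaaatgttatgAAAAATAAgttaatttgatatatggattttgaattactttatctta
mRpL20: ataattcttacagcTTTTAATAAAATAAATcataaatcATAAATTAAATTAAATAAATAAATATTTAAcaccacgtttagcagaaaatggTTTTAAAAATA

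The window of mRpL20 is the most AT-rich of all 13, with a GC content of 15.8% and a run of 30 A or T bases. That of mRpL24 holds 20.8% GC and a run of 24. The mRpS10 window holds 3 such runs, up to 11 bases long, and that of mRpS23 holds 2, up to 12 bases long. The mRpS2 window holds 1 run, of 8 bases. No printed window holds the pentamer CCAAT on either strand.

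The tallest peaks were at 4 genes, each among the 64 highest of the 3354 pooled peaks by signal, a deposited value of the authors on a scale the files do not state. mRpL41, a large-subunit protein numbered outside the range of bacterial ribosomal proteins, had a pooled signal of 892, rank 5 of the list, and 347 in replicate 1 and 552 in replicate 2. mRpS10, the counterpart of bacterial S10, had 756 in the pooled list (rank 13), 281 in replicate 1 and 481 in replicate 2. mRpS23, a small-subunit protein with a number outside the bacterial range, had 754 (rank 14), 275 and 487 in the same order. In each list these 3 genes were closer to each other than to the other bound mRp genes, all of which were lower. mRpL23, the counterpart of a protein at the exit tunnel of the bacterial ribosome, had 459 in the pooled list (rank 64), 176 in replicate 1 and 281 in replicate 2. Their peaks were also narrower, at 242, 227, 242 and 185 bp in the order named, than the 330 bp of the other 9. Narrower peaks made up 9.48% of the pooled list.

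A middle group of 3 genes was also in the own thresholded list of each replicate. mRpL24, the counterpart of a protein that bacteria use early in large-subunit assembly, had a pooled signal of 213, with 82.9 in replicate 1 and 124 in replicate 2. mRpS2, the counterpart of bacterial S2, had 195, with 85.5 and 108. mRpL20, the counterpart of another early assembly protein, had 139, with 45.9 and 95.4. With the 4 tallest these make 7 mRp genes that were thresholded in both replicates, 9.59% of the 73 (interval 3.94 to 18.8), against 6.07% of all protein-coding genes. All 7 are above 134 in pooled signal, the level that 25% of the pooled peaks exceed. They are the only ones of the 13 bound mRp genes above it (53.8%). Of all bound protein-coding genes 34.7% were above it, and of bound divergent ones 33.3%.

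Below them, the genes passed the threshold in the own list of 1 replicate or of neither. mRpL34 and mRpL32, both with bacterial counterparts, were thresholded in replicate 1 but not in replicate 2. mRpL34 had a pooled signal of 101, with 49.1 in replicate 1 and 50.5 in replicate 2, where the entry's score was 31 against the 830 that the thresholded lists require. mRpL32 had 76.7 in the pooled list, with 41.1 in replicate 1 (score 831, just over that limit) and 40.4 in replicate 2 (score 628). Within the ranked lists mRpL34 stood at rank 1251 in replicate 1 and 1753 in replicate 2, and mRpL32 at rank 1736 and 2541, so both had an entry in each replicate and passed the limit in 1. Both also had a score of 1000 in the conservative thresholded list, a joint list described below.

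mRpS29, the homologue of the human GTP-binding protein DAP3, was unlike the others in the place of its peak. Its summit lay 468 bp downstream of its start site, inside its own coding sequence, and is the farthest from a start site of the 13. The pooled signal was 47.0 and the score 839, the lowest score of the 13. Replicate 1 had a thresholded peak of 36.8 there, 424 bp downstream of the start site, whereas the tallest entry of replicate 2 near the gene, of 16.5, lay elsewhere, 52 bp downstream. Replicate 2 did have a lower entry over the site, with a signal of 13.7 and a score of 46, far below the threshold.

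3 small-subunit genes, mRpS26, mRpS31 and mRpS6, were in the pooled list but in the own thresholded list of neither replicate. That is 4.11% of the 73 mRp genes (interval 0.856 to 11.5), against 2.72% of all protein-coding genes. mRpS26 had a pooled signal of 63.6, with 29.7 in replicate 1 and 35.5 in replicate 2. mRpS31 had 51.7, with 20.7 and 32.6. mRpS6, the counterpart of bacterial S6, had 40.1, with 28.1 and 29.6. Unbound mRp genes reached 27.5 in replicate 1, above mRpS31, and 38.4 in replicate 2, above all 3.

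**Figure D1:**
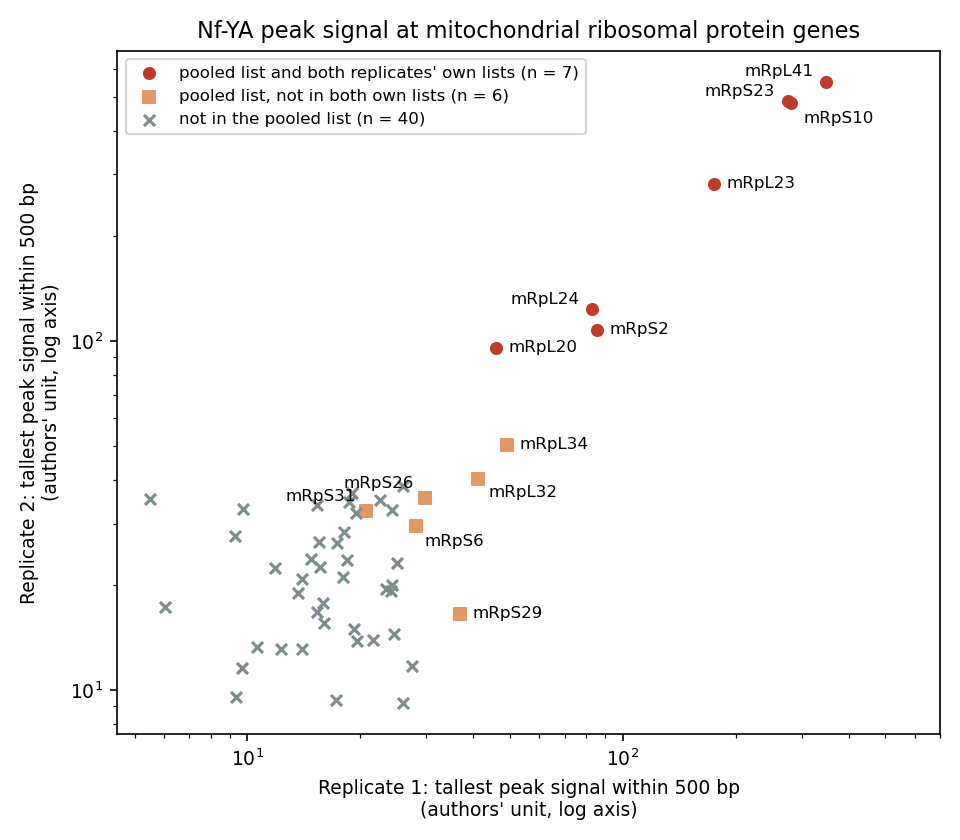
Peak signal at the 53 mRp genes with an entry in the ranked lists of both replicates, replicate 1 across and replicate 2 up, both on log axes in the authors' unit. Each value is the tallest entry within 500 bp in that replicate, so the values of a gene can come from different peaks. The 7 genes thresholded in both replicates run along the diagonal up to mRpL41 (347 and 552), the lower 6 bound genes lie closer to the origin, and the 40 unbound genes form a cloud reaching 27.5 in replicate 1 and 38.4 in replicate 2.

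Each replicate's own list gave a similar picture with fewer genes. Replicate 1 held 10 bound mRp genes (13.7%), with 7.54% of all protein-coding genes. Replicate 2 held 7 (9.59%), with 9.14% of all protein-coding genes, and these were the 7 that both lists hold. Both background shares lie inside the intervals of the mRp genes, 6.77 to 23.8 in replicate 1 and 3.94 to 18.8 in replicate 2. The conservative thresholded list, a shorter joint list of 3091 peaks with the same score limit of 830, held 11 (15.1%), against 11.6% of all genes. It is not a subset of the pooled list, since 407 of its peaks are not in the latter. It lacked mRpS29, mRpS31 and mRpS6 and added mRpL53, whose peak had a signal of 55.1 and a summit 34 bp from its start site.

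Most of the 13 bound genes shared the DNA at the summit with another gene. All 13 were among the 58 mRp genes that have a divergent neighbour, meaning a start site on the opposite strand, pointing away, within 1000 bp. That is 22.4% of the 58 (interval 12.5 to 35.3), and among all divergent protein-coding genes the share was 19.7%. Of the 15 mRp genes with no such neighbour, 0 were bound, which allows a share of up to 21.8%, and among all such protein-coding genes it was 8.35%. At 11 of the 13 bound mRp genes (84.6%) the summit was also within 500 bp of a start site of another protein-coding gene. Among all bound protein-coding genes this share was 47.8%, and among bound divergent ones 79.8%. With the limit set at 250 bp, 9 mRp genes were bound, against 9.59% of all protein-coding genes, and 5 of the 9 shared the summit.

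At 10 of these pairs the summit lay between both start sites, so the peak cannot be assigned to either gene. At mRpS10 it was 130 bp upstream of the start site, and 127 bp upstream of Art3, a predicted protein arginine methyltransferase. For mRpL24 the distance was 104 bp, and 114 bp for betaggt-I, the beta subunit of an enzyme that adds lipid tails to small GTPases. These are the most central summits. At mRpL32 the summit was 101 bp upstream, and 163 bp upstream of qless, which acts in the synthesis of the side chain of ubiquinone, an electron carrier of mitochondria.

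Some summits lay nearer to the partner. At mRpS23 the summit was 383 bp upstream of the mRp gene but 109 bp from CenG1A, an Arf GTPase-activating protein. That of mRpS2 was 147 bp away and 75 bp from Mon1, which acts in activating Rab7 on endosomes. mRpL20 was 274 bp from its summit and Icmt, a methyltransferase of prenylated proteins, 125 bp. For mRpS26 the distances were 266 bp and 164 bp to CG13698, whose role is not given here.

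Others lay nearer to the mRp gene. The mRpS6 summit was 81 bp upstream, and 367 bp from Cip4, an F-BAR protein of membrane and actin remodelling. That of mRpS31 was 107 bp upstream and 350 bp from hzg, a phosphatase. For mRpL34 it was 112 bp, and 272 bp to Dg, the dystroglycan gene. In all, 8 of the 13 summits (61.5%) were nearer to the mRp gene than to any other protein-coding gene, and 5 were not. The same share was 73.5% over all bound protein-coding genes and 57% over bound divergent ones.

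At the other 3 of the 13 the summit did not stand between 2 divergent starts that both lay within 500 bp of it. mRpL23 has 3 annotated start sites, and the one nearest the summit is 50 bp from the start of CG9004. The smallest gap between the start sites of the pair is 24 bp. The summit lay 70 bp downstream of that nearest mRpL23 start, in the annotated 5′ untranslated region of mRpL23, and 120 bp upstream of CG9004. mRpL41 had its summit 139 bp upstream, in intergenic DNA, with no other protein-coding start site within 500 bp and the noncoding gene lncRNA:CR44463 at 439 bp. Its divergent neighbour CG8079 starts 762 bp from the mRpL41 start. This summit therefore also lay between divergent starts, but CG8079 was beyond the limit and was not counted as bound. mRpS29, described above, had no partner at its summit.

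**Figure D2:**
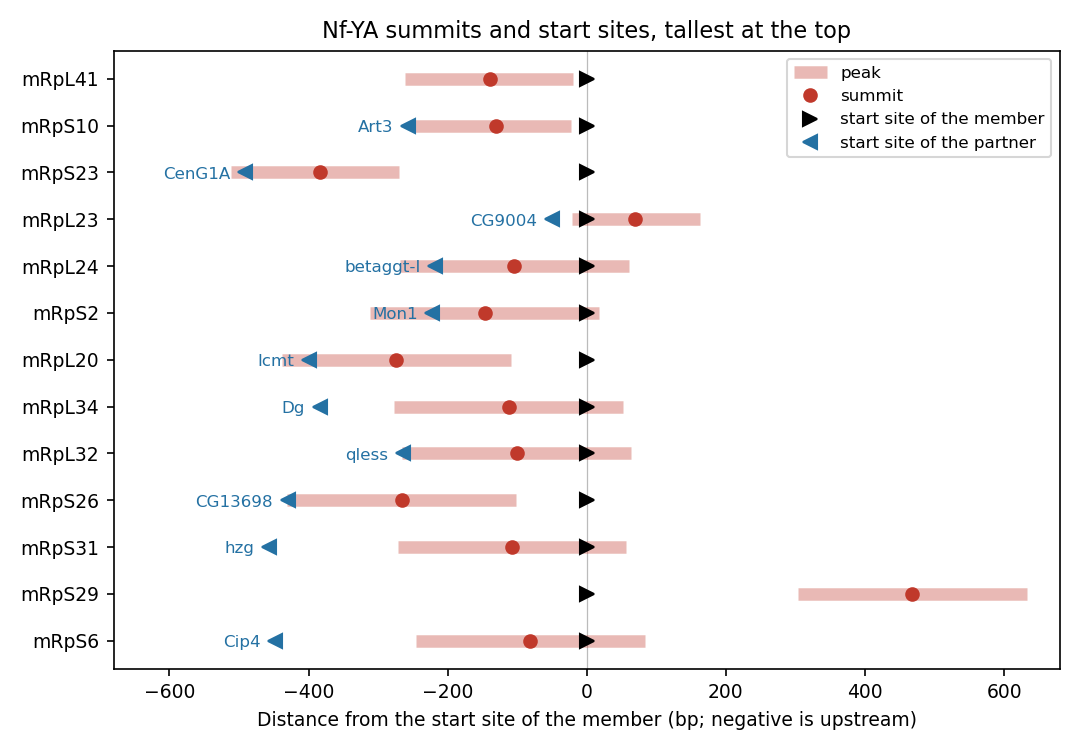
Position of the Nf-YA peak, its summit and both start sites at the 13 bound mRp genes, in bp from the start site of the mRp gene, with the tallest peak at the top. In 10 rows the summit stands between the start sites of the mRp gene and its partner, and only the mRpL23 and mRpS29 summits lie downstream, at 70 and 468 bp.

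Summits of the bound mRp genes were set back from the start site. The median distance was 130 bp (70 to 468), and 8 of 13 summits (61.5%) lay 50 to 150 bp upstream, against 31.4% of all bound protein-coding genes. None of the 13 lay within 50 bp of its start site, and among all bound protein-coding genes 13.2% did. The quartiles of the distance were 104 and 266 bp at the mRp genes, against 86 and 248 bp over all bound genes, whose median was 147 bp, so the overall range was similar.

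Bound and unbound mRp genes also differed in the gap between the divergent start sites. Of the 22 mRp genes whose partner starts within 200 bp, 1 was bound (4.55%), namely mRpL23. Of 31 with a gap of 201 to 500 bp, 10 were bound (32.3%). Of 5 with a wider gap, up to 1000 bp, 2 were, mRpL41 and mRpS29. The summits of mRpL23 and mRpS29 lay downstream of their start sites, outside the gap. The same bins over all divergent protein-coding genes gave 17.1%, 24.5% and 14%. The median gap was 399 bp at bound and 279 bp at unbound mRp genes, while over all divergent genes it was 278 bp at bound and 303 bp at unbound ones. The bins hold few mRp genes, and the difference was not tested.

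The base composition of the sites was low in GC at 12 of the 13. In the 101 bp around the summit the median GC content was 26.7% (15.8 to 57.4), against 33.7% over all bound protein-coding genes and 31.7% over divergent ones. A GC content under 35% was found at 12 mRp summits (92.3%), at 54.1% of the sites of all bound genes and at 61.4% of those of bound divergent genes. The exception was mRpS29, at 57.4%, whose summit lies in coding sequence. Runs of at least 8 A or T bases were found in 12 of the 13 windows, against 63.5% of all pooled summits and 49.8% of windows of the same length centred on start sites. In a window of 201 bp the median of the bound mRp genes was 33.3%, against 35.8% over all bound protein-coding genes, a smaller difference than in the narrow window. The DNA from 150 to 50 bp upstream of the start site had a median GC of 26.7% in bound and 30.2% in unbound mRp genes, against 35.6% and 36.6% in bound and unbound protein-coding genes as a whole.

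Short motifs were counted in the same 101 bp windows, reading each strand. The pentamer CCAAT was found at 1 of the 13 mRp summits, that of mRpL34, and at 19.5% of all pooled summits and 17.5% of all start-site windows. The longer NF-Y motif, CCAAT flanked by purines with C or G as the next base, was found at 0 of 13 and at 2.5% of pooled summits, and every match to it is also a match to CCAAT. The mRpL34 window also held GCATGC, the core of the NRF1 site, which 2% of pooled summits held. TATAAA was found at mRpL23 alone (18.3% of pooled summits) and GAGAG at mRpS29 alone (13.8%). None of the 13 held CGATA, which 13.5% of pooled summits held, and so none held the DRE (TATCGATA), a core promoter element that contains it and was at 0.835%. GGTCACAC, the core of Ohler motif 1, was also at none, against 0.745% of pooled summits. The E-box CAGCTG was at none and at 4.03% of pooled summits, and the CRE part TGACGT was at none and at 2.09%. The count of CCAAT was 0 within 25 bp of the summit and 3 within 100 bp.

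**Figure D3:**
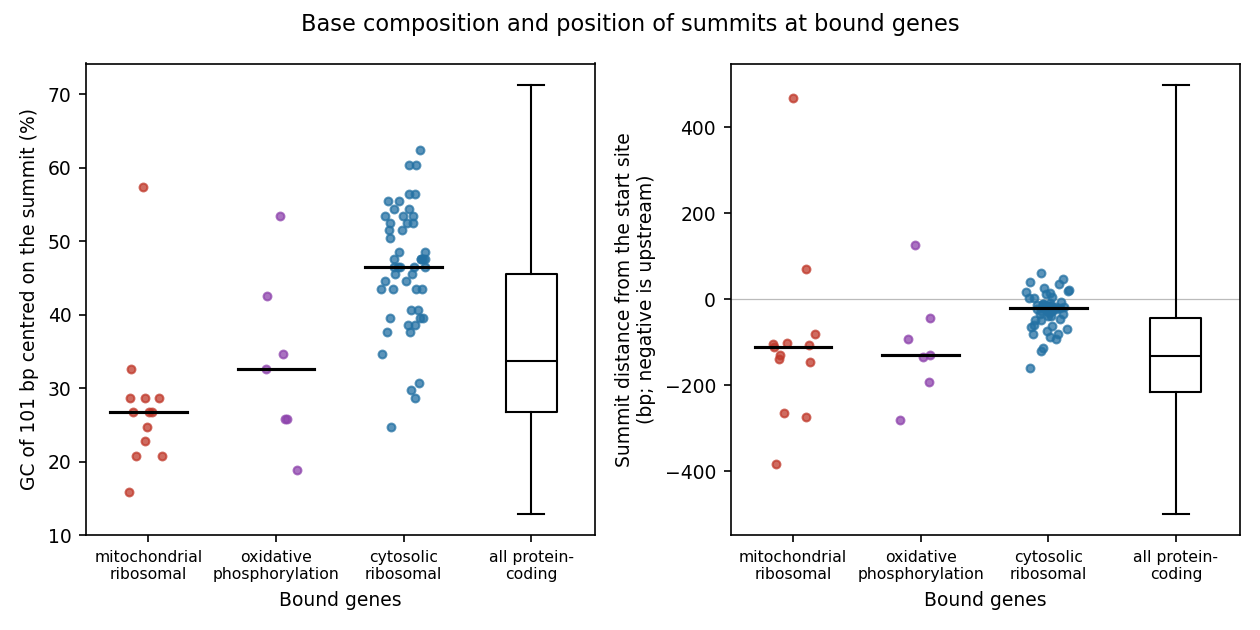
GC content of the 101 bp around the summit (left, in %) and signed distance of the summit from the start site (right, in bp, negative upstream) at bound genes. Points are genes and lines are medians, and the box spans the quartiles of all 1737 bound protein-coding genes with whiskers to the lowest and highest. Of the 13 mRp points 12 lie below 35% GC, and their distances cluster near the median of 112 bp upstream.

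Between the subunits, 7 of 26 small-subunit genes were bound (26.9%, interval 11.6 to 47.8) and 6 of 47 large-subunit genes (12.8%, 4.83 to 25.7). The intervals overlap. The size of the gap depends on the list. The conservative list held 4 small-subunit genes (15.4%) and 7 large-subunit genes (14.9%), against 11.6% of all protein-coding genes. Both replicates thresholded 3 (11.5%) and 4 (8.51%), against 6.07%. The median pooled signal was 63.6 over the 7 small-subunit genes and 176 over the 6 large-subunit genes. Genes with a bacterial-type number (large subunit up to 36, small subunit up to 21) were bound in 8 of 42 cases (19%, 8.6 to 34.1), and those with higher, mitochondrion-specific numbers in 5 of 31 (16.1%, 5.45 to 33.7). Both of these intervals also hold 12.5%. By arm, 5 of 17 mRp genes were bound on 3L, 3 of 12 on 2L, 3 of 12 on 2R, 2 of 21 on 3R and 0 of 11 on X. Over all protein-coding genes the shares were 13.8% on 3L, 12.5% on 2L, 12.4% on 2R and 12.6% on 3R. On X, where 0 of 11 allows up to 28.5%, the share over all protein-coding genes was 10.7%.

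The 60 unbound mRp genes were far from any pooled summit, with a median distance of 8477 bp. The nearest was mRpL27, a large-subunit gene, at 1250 bp, so that no mRp gene lay beyond the limit but within 1000 bp, and the members nearest inside the limit were mRpS29 at 468 bp and mRpS23 at 383 bp. The limit of 500 bp therefore did not decide between close cases on its outer side.

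In the ranked lists, which also hold peaks below the threshold, most unbound mRp genes had an entry. Counting bound and unbound together, 66 of 73 had one in the pooled ranked list (90.4%), against 82.9% of all protein-coding genes. Replicate 1 had an entry for 59 (80.8%), against 73.4%, and replicate 2 also for 59 (80.8%), against 76.9%. Such entries are common at genes of any kind. The median pooled ranked signal of the 53 unbound mRp genes with an entry was 35.2 (5.46 to 59.5), and 27.9 over all unbound protein-coding genes with one.

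Among the 40 unbound genes with an entry in both replicates, the 5 with the highest mean of the replicate values were mRpL53, mRpS28, mRpL18, mRpL48 and mRpL42. mRpL53 had 25.9 in replicate 1 and 38.4 in replicate 2, and its pooled ranked entry had a score of 437. mRpS28 had 22.5 and 35.1, and mRpL18 had 24.3 and 32.7. These are above the bound mRpS31 in both replicates, so the border between bound and unbound mRp genes is not a step in signal. mRpL48 had 19.0 and 36.7, and mRpL42 had 18.7 and 34.7. At the low end, 8 genes had no entry in either replicate, namely mRpL2, mRpL19, mRpL43, mRpL49, mRpS5, mRpS9, mRpS30 and mRpS35.

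As a description across genes, which share both libraries, Spearman's rho between the replicate signals was 0.495 over the 53 mRp genes with an entry in both lists and 0.596 over the 8825 protein-coding genes with such entries. It was 0.945 over the 13 bound mRp genes and 0.0424 over the 40 unbound ones. Bound genes were selected by a threshold on the deposited score and span a wider range of signals, so these last values are not set against each other. Passing that threshold in the pooled list did not require a high score in each replicate. mRpS6 scored 998 in the pooled list, 72 in replicate 1 and 67 in replicate 2.

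Other gene lists of translation and of mitochondria gave different shares. Cytosolic ribosomal protein genes, which encode the ribosome of the cytosol, were bound in 52 of 92 cases (56.5%, interval 45.8 to 66.8), above the interval of the mRp genes. Their signals were in a middle range, with a median of 122 and a highest value of 255, whereas the mRp genes had a median of 139 and a highest value of 892. The position of the summit differed as well, at a median distance of 130 bp for the mRp genes and 27 bp for the cytosolic ones, of which 75% had the summit within 50 bp. The median GC content was 26.7% at the mRp summits and 46.5% at the cytosolic ones, and a partner gene shared the summit at 84.6% and 46.2% of genes.

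Genes of oxidative phosphorylation, whose complexes hold the products of the mitochondrial ribosome, were bound in 7 of 89 cases (7.87%, 3.22 to 15.5). This interval overlaps that of the mRp genes. The summits of those 7 had a median distance of 129 bp and a median GC content of 32.7%, close to the mRp genes in distance. A partner gene shared the summit at 6 of the 7 (85.7%), a share like the 84.6% of the mRp genes. A GC content under 35% was found at 5 of the 7 (71.4%). The mitochondrial ribosomal protein genes tko and bonsai, which carry other symbols, were both unbound. Among 20 genes of mitochondrial transcription, translation and RNA metabolism, 1 was bound, PNPase, the polynucleotide phosphorylase of mitochondrial RNA turnover. Its peak had a signal of 867 in the pooled list, 358 in replicate 1 and 507 in replicate 2, and its summit lay 86 bp upstream of the start site, which places it beside mRpL41 and mRpS10 in height.

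**Figure D4:**
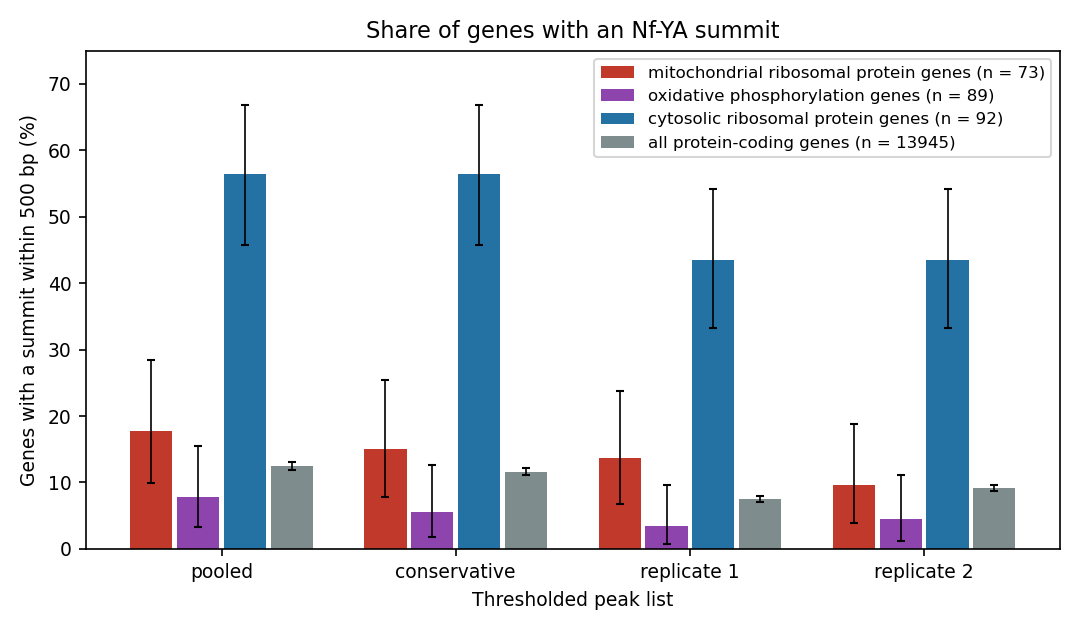
Share of genes (%) with a summit within 500 bp of a start site in each thresholded list, for mRp, oxidative phosphorylation, cytosolic ribosomal and all protein-coding genes. Bars start at 0 and error bars are exact 95% intervals, and the mRp share runs from 9.59% to 17.8% while the cytosolic share runs from 43.5% to 56.5%.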

How the data were processed

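The data were peak lists in dm6 coordinates from 2 biological replicates, deposited by the authors, with the aligner and peak caller not given in the sources used here. A ranked and a thresholded list stood for each replicate, and the replicates were joined in a pooled ranked, a pooled thresholded and a conservative thresholded list. The signal of a peak is the authors' deposited value on an unstated scale, and replicate values are given side by side. The lists of the replicates were not rescaled to each other, and a mean of both was used only to choose the unbound genes to name. The score deposited by the authors is a code of the irreproducible discovery rate. Its lowest value in each thresholded list, 830, corresponds to a rate of 0.01. The ranked lists used hold 24 columns for unnamed inputs, which were not used, and a further ranked list of the series was not analysed here. Reads were not analysed, so depth is unknown.

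The Ensembl annotation of BDGP 6.54 gave the start sites and has the dm6 coordinates, and sequence was read from the RefSeq genome of the same build. The replicate value of a gene is its tallest ranked entry within 500 bp. Intervals cover counting error only. No test was run, since there is 1 group and the members and lists were chosen with earlier results of these data known. The rule for named genes took all bound members with their partners, members in 1 list only, the 5 highest and the lowest or absent unbound members (8 tied as absent) and bound genes of the short mitochondrial lists. Symbols of that last list matched for 20 of 24 names. Alternatives were other distances, lists, start sites and windows. The code was tested on simulated peaks and run in Python 3.11.15 with pandas 2.3.3, numpy 2.4.6, matplotlib 3.10.9 and scipy 1.17.1.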

Additional observations from a re-analysis of the deposited data

How the results depend on the processing

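The number of bound mRp genes was 9 at a limit of 250 bp (9.59% of all protein-coding genes), 13 at 1000 bp (15.3%), 13 with 1 start site per gene (10.6%) and 11 in the conservative list (11.6%). It ranged from 7 to 10 with either replicate left out, and was 8 for the upper 50% of peaks by signal (7.54%) and 7 when the peak had to overlap a start site. The share over all protein-coding genes was not computed for overlap, so that count has no background to be read against. Leaving out replicate 1 dropped mRpL32, mRpL34, mRpS26, mRpS29, mRpS31 and mRpS6, and leaving out replicate 2 dropped mRpS26, mRpS31 and mRpS6. With the limit at 250 bp, 5 bound genes shared their summit with another protein-coding gene, against 11. The median distance, 130 bp, ranged from 134.5 to 139 bp with a replicate left out. The CCAAT count was 0 within 25 bp and 3 within 100 bp, and that of the longer motif was 0 at both. A window of 201 bp, added after the data were seen, gave a median GC of 33.3%. The small-subunit count fell to 3 or 4 at 250 bp, in the conservative list, with either replicate left out and for the upper 50% of peaks. No bound gene was lost at 1000 bp or with 1 start site per gene. No paired analysis was possible because there is only 1 group. The depth of the libraries is unknown, so how far it limits low peaks was not tested.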
